A study of Mus musculus with 8 samples.

Results

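The genes examined here are the 4 that encode the AMPA receptor subunits, *Gria1*, *Gria2*, *Gria3* and *Gria4*, taken by symbol from the 25834 genes of the deposited count table. All 4 were present once and all 4 passed the filter on low counts, which kept 16251 genes. The study asked which hippocampal transcripts differ in mice with a nervous-system deletion of SAP97, the scaffold protein encoded by *Dlg1*. RNA was sequenced from 8 male hippocampi, 1 library per mouse. The library totals ran from 37388177 to 37416649 counts among controls and from 37391907 to 37426572 among SAP97-cKO mice, after the authors' resampling of reads to equal depth.

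The SAP97-cKO group (n = 4 mice) carried Nestin-cre+/- and SAP97fl/fl. The control group (n = 4 mice) consisted of littermates, which the methods list as Nes-cre+/-, SAP97fl/fl and wild-type. The sources used here do not give the genotype of each control library or the age of the sequenced mice. The Cre line was on a C57Bl/6 background. The Nestin promoter drives Cre in neural precursors, so the neurons and glia that descend from them carry the deletion. The tissue was whole hippocampus, so fewer cells of a type and less RNA per cell cannot be told apart in any value below.

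AMPA receptors are glutamate-gated ion channels that carry most of the fast excitatory transmission in the brain. Each channel is built from the subunits GluA1 to GluA4, encoded by *Gria1* to *Gria4*, and in hippocampal pyramidal neurons most contain GluA2. SAP97 binds the C-terminal tail of GluA1 through its PDZ domains and takes part in the trafficking of receptors that hold this subunit.

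The targeted gene was measured first, as a check of the labels. *Dlg1* (ENSMUSG00000022770, chr16:31663443-31875129, plus strand of GRCm38) had 4128, 4550, 3983 and 4691 counts in control libraries 1 to 4 after scaling by the TMM method of edgeR. It had 2353, 3065, 2144 and 2009 counts in SAP97-cKO libraries 1 to 4. All 4 SAP97-cKO libraries lay below the lowest control library, and SAP97-cKO library 2 held the most of the 4. The level in SAP97-cKO hippocampi was 55.2% of control (log2 fold change −0.86, SE 0.12, adjusted p = 0.143 in edgeR's quasi-likelihood test). This passed the threshold of the study, an FDR under 0.25. The count covers the whole gene and not the deleted exon alone. The call was lost without control library 2, SAP97-cKO library 3 or SAP97-cKO library 4 (adjusted p = 0.424, 0.524 and 0.346), while the log2 fold change without each library in turn stayed between −1.0 and −0.78. When the meningeal fibroblast genes were a covariate, *Dlg1* had a log2 fold change of −0.40 (SE 0.218, adjusted p = 1.0 in edgeR) and 0 of 16251 genes passed. The mean of those genes did not overlap between genotypes, so genotype and score cannot be told apart in that fit.

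None of the 4 AMPA receptor subunit genes passed an FDR of 0.25 in edgeR, and none did in limma-voom or DESeq2. Across all genes tested, 48 of 16251 (0.295%) passed, 46 lower and 2 higher in SAP97-cKO hippocampi. At an unadjusted p under 0.05, 1 of the 4 genes was higher in SAP97-cKO hippocampi and 0 were lower. Over all genes tested, 4.73% were higher and 7.01% lower at that threshold. Both genotypes overlapped in their library values for each of the 4 genes, and 6.25% of all genes tested had genotypes that did not overlap. *Gria1*, *Gria2* and *Gria3* had higher means in SAP97-cKO hippocampi and *Gria4* had a lower one. These directions were the same with TMM, with DESeq2 size factors and with no scaling.

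*Gria1* encodes GluA1, the subunit whose tail binds SAP97. The gene (ENSMUSG00000020524) lies on the plus strand at chr11:57011387-57330244. It had 43077, 36239, 38451 and 31253 TMM-normalized counts in control libraries 1 to 4 and 43000, 31432, 44672 and 48490 in SAP97-cKO libraries 1 to 4. SAP97-cKO libraries 3 and 4 were the highest of the 8, control library 4 and SAP97-cKO library 2 the lowest, and the genotypes overlapped. The mean was 37250 ± 4912 counts (SD, n = 4) in control and 41900 ± 7346 (SD, n = 4) in SAP97-cKO hippocampi. The log2 fold change was 0.17 (SE 0.14, 95% interval −0.14 to 0.48, adjusted p = 0.625 in edgeR). The exact two-sided permutation test over the 70 assignments of 8 libraries gave p = 0.314, where the smallest possible value is 0.0286. The interval corresponds to a fold between 0.907 and 1.39. The log2 fold change was −0.02 with the excitatory neuron genes as a covariate (SE 0.076, adjusted p = 0.948 in edgeR). It was −0.23 (SE 0.288) with the meningeal fibroblast genes, in a fit that cannot tell genotype from that score.

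*Gria2* encodes GluA2, the subunit whose edited pore makes the channel nearly impermeable to calcium. The gene (ENSMUSG00000033981) lies on the minus strand at chr3:80681450-80802835. Control libraries 1 to 4 had 34203, 28999, 27823 and 24862 TMM-normalized counts, and SAP97-cKO libraries 1 to 4 had 33794, 29216, 33044 and 34235. Control library 1 was close to the highest SAP97-cKO library, and the other 3 control libraries lay below all 4 SAP97-cKO libraries. The means were 28970 ± 3898 counts (SD, n = 4) in control and 32570 ± 2291 (SD, n = 4) in SAP97-cKO hippocampi. The log2 fold change was 0.17 (SE 0.10, 95% interval −0.06 to 0.40, adjusted p = 0.524 in edgeR). The exact permutation test gave p = 0.171.

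*Gria3* encodes GluA3, which pairs mainly with GluA2. The gene (ENSMUSG00000001986) lies on the plus strand at chrX:41400854-41678601. Its TMM-normalized counts were 9459, 8073, 7643 and 6022 in control libraries 1 to 4 and 9406, 9752, 8877 and 9528 in SAP97-cKO libraries 1 to 4. The SAP97-cKO libraries lay close together, with libraries 2 and 4 above the highest control and libraries 1 and 3 between control libraries 1 and 2. The mean was 7799 ± 1416 counts (SD, n = 4) in control and 9391 ± 371.5 (SD, n = 4) in SAP97-cKO hippocampi. The log2 fold change was 0.27 (SE 0.12, 95% interval 0.01 to 0.53), with an unadjusted p of 0.0442 and an adjusted p of 0.414 in edgeR. The exact permutation test gave p = 0.0857. Without control library 1, *Gria3* (log2 fold change 0.37, adjusted p = 0.186 in edgeR) and *Gria2* (0.26, adjusted p = 0.235) passed an FDR of 0.25, in a fit in which 1675 genes passed in place of 48. Over all 18 alternatives the adjusted p of *Gria3* ranged from 0.186 to 1.0 and that of *Gria2* from 0.235 to 1.0.

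*Gria4* encodes GluA4, which in the adult hippocampus is found mostly in interneurons. The gene (ENSMUSG00000025892) lies on the minus strand at chr9:4417896-4796234. Control libraries 1 to 4 had 2799, 2738, 3865 and 3098 TMM-normalized counts, and SAP97-cKO libraries 1 to 4 had 2266, 3234, 2528 and 2433. In 3 of 4 SAP97-cKO libraries the value was below the lowest control, and SAP97-cKO library 2 was the second highest of the 8. The means were 3125 ± 517.9 counts (SD, n = 4) in control and 2615 ± 426.7 (SD, n = 4) in SAP97-cKO hippocampi. This was a log2 fold change of −0.26 (SE 0.13, 95% interval −0.55 to 0.04, adjusted p = 0.464 in edgeR), and the exact permutation test gave p = 0.171.

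**Figure D1:**
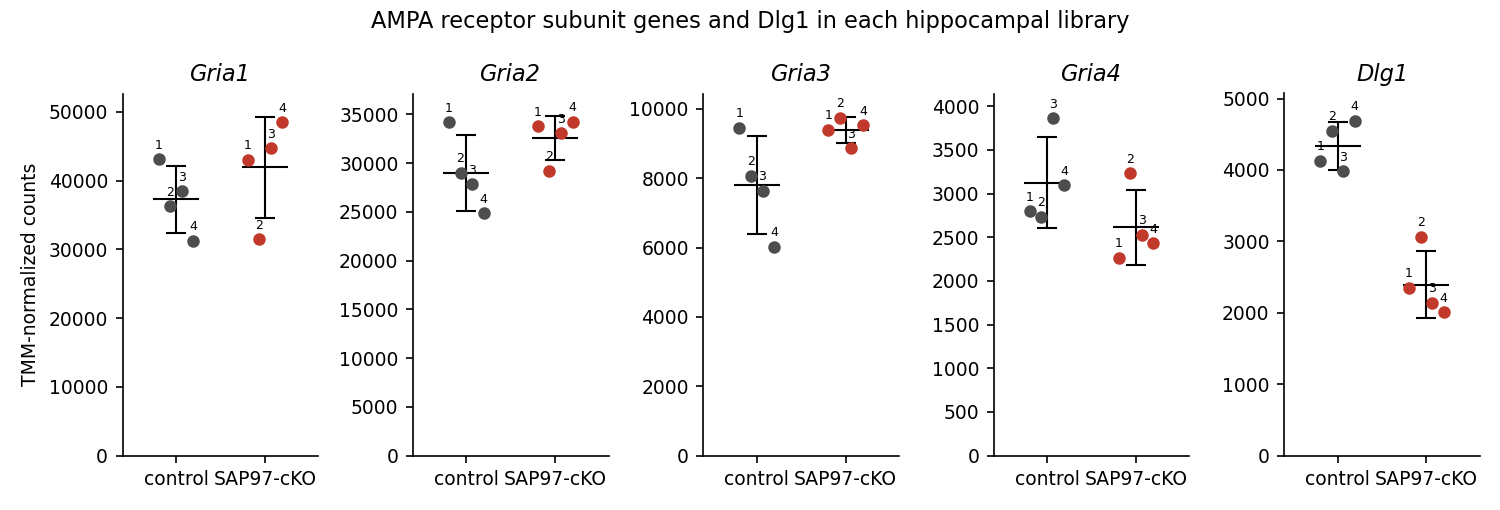
TMM-normalized counts of *Gria1*, *Gria2*, *Gria3*, *Gria4* and *Dlg1* (y axes from 0) in 4 control and 4 SAP97-cKO hippocampal libraries, as single numbered libraries with the mean ± SD. The genotypes overlap for each of the 4 AMPA receptor subunit genes, while the SAP97-cKO libraries lie below the controls for *Dlg1*, at 55.2% of the control mean.

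The lowest deposited count of *Gria1* was 31576, which carries a counting error of 0.563%, against a coefficient of variation between mice of 13.2% in control and 17.5% in SAP97-cKO hippocampi. For *Gria4*, the least abundant of the 4, the lowest count was 2225 with a counting error of 2.12%, against 16.6% and 16.3% between mice. *Gria3* varied by 18.2% among control and by 3.96% among SAP97-cKO mice, with a counting error of 1.27% in its lowest library.

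The levels of the 4 genes were compared per length, first as TMM-normalized counts per kb of exon union over the 8 libraries. *Gria1* stood at 6549 ± 1042 counts per kb (SD, n = 8), higher than 99.0% of the 16203 genes tested that had an annotated length. *Gria2* stood at 1979 ± 227.1, *Gria3* at 871.8 ± 130.0 and *Gria4* at 455.2 ± 82.0 counts per kb (SD, n = 8). The order *Gria1*, *Gria2*, *Gria3*, *Gria4* held within each of the 8 libraries. Each neighbour in this order differed in an exact sign-flip permutation test of the log2 ratio within libraries (p = 0.00781, the smallest that 8 libraries allow, and 0.00781 after adjustment over the 3 tests). The order was taken from the means of the same libraries, so these p-values describe only how steadily it held over them. *Gria1* was 3.29-fold above *Gria2* and *Gria2* was 2.28-fold above *Gria3*, with no overlap between the ranges of libraries. *Gria3* was 1.92-fold above *Gria4*, by 1.24-fold to 2.65-fold in single libraries, and the 2 ranges overlapped.

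The size of these steps depended on the length used. The exons of *Gria2* cover 15.5 kb, of which 2.80 kb are coding, while those of *Gria1* cover 6.04 kb with 2.84 kb coding. Per kb of coding sequence, *Gria1* stood at 13960 ± 2220 and *Gria2* at 10970 ± 1259 TMM-normalized counts (SD, n = 8). The ratio of *Gria1* to *Gria2* was then 1.26, from 1.06 to 1.40 over the libraries, and the ranges of both genes overlapped. *Gria3* stood at 3093 ± 461.1 and *Gria4* at 1007 ± 181.3 counts per coding kb (SD, n = 8), ratios of 3.57 between *Gria2* and *Gria3* and 3.08 between *Gria3* and *Gria4*. The order of the 4 genes was the same on both scales and in all 8 libraries.

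The make-up of the subunit transcripts within each library does not depend on scaling between libraries. In counts per kb of exon union, *Gria1* made up 66.4%, 65.8%, 66.7% and 65.7% of the summed level in control libraries 1 to 4 and 67.1%, 60.6%, 68.3% and 69.3% in SAP97-cKO libraries 1 to 4. Its share was nearly constant among controls, and SAP97-cKO library 2 lay below all other libraries. *Gria4* made up 4.14%, 4.76%, 6.43% and 6.24% in control and 3.39%, 5.98%, 3.71% and 3.33% in SAP97-cKO libraries 1 to 4. The mean share of *Gria4* was 5.39% ± 1.12 (SD, n = 4) in control and 4.10% ± 1.26 (SD, n = 4) in SAP97-cKO mice, a difference of −1.29 percentage points (exact permutation p = 0.171). *Gria2* held 20.01% ± 0.838 in control and 20.3% ± 1.25 in SAP97-cKO hippocampi (SD, n = 4, exact permutation p = 0.714), and *Gria3* held 8.45% ± 0.608 and 9.30% ± 1.52 (SD, n = 4, exact permutation p = 0.4). For *Gria1* the means were 66.2% ± 0.487 and 66.3% ± 3.93 (SD, n = 4, exact permutation p = 0.943). After Benjamini-Hochberg adjustment over the 4 shares, the smallest p was 0.686.

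Part of these values depended on library 2 of the SAP97-cKO group. Without it, the shares of *Gria1* (66.2% ± 0.487 in 4 control and 68.3% ± 1.10 in 3 SAP97-cKO libraries) and *Gria4* (5.39% ± 1.12 and 3.48% ± 0.201) did not overlap between genotypes. The exact permutation p was then 0.0571 for each (adjusted over the 4 shares p = 0.114), the smallest that 4 against 3 libraries can give. With any other single library left out, both shares overlapped between genotypes. SAP97-cKO library 2 held the lowest *Gria1* share and the highest *Gria4* share of its genotype, so leaving it out is no independent test of either. The difference in the share of *Gria3* was 0.847 percentage points with that library, where the share was 11.5%, and 0.104 without it. Per coding kb, *Gria1* made up 47.9% and *Gria2* 37.8% of the summed level over the 8 libraries, against 66.2% and 20.1% per kb of exon union.

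*Gria2* varied together with *Gria1* and with *Gria3* from library to library. Over the 8 libraries, the log2 CPM of *Gria1* and *Gria2* had Pearson's r = 0.87 (exact permutation p = 0.00791, adjusted over the 6 pairs of genes p = 0.0255) and Spearman's rho = 0.83 (exact permutation p = 0.0154, adjusted p = 0.0923). *Gria2* and *Gria3* had r = 0.86 (exact permutation p = 0.00851, adjusted p = 0.0255) and rho = 0.76 (exact permutation p = 0.0368, adjusted p = 0.11). *Gria4* had r = −0.71 to *Gria2* (exact permutation p = 0.0463, adjusted p = 0.0925) and rho = −0.67 (exact permutation p = 0.0831, adjusted p = 0.166). Neither this pair nor the other 3 passed an adjusted p of 0.05, with r = 0.55 for *Gria1* and *Gria3*, −0.62 for *Gria1* and *Gria4* and −0.45 for *Gria3* and *Gria4* (adjusted p = 0.183, 0.155 and 0.265 by exact permutation).

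Taken as deviations from the genotype means, *Gria1* and *Gria2* still had r = 0.85, and *Gria2* and *Gria3* had r = 0.78 with an adjusted p of 0.11 by exact permutation. Without the 2 libraries farthest from the median of the first gene, *Gria1* and *Gria2* had r = 0.86 over 6 libraries (exact permutation p = 0.0375, adjusted p = 0.154). *Gria2* and *Gria3* had r = 0.44 there (exact permutation p = 0.454).

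For each subunit gene, the 3 genes with the highest Pearson's r to it over the 8 libraries were picked from 16250 others, and their r is a description of that choice. For *Gria1* these were *Ncdn* (r = 0.988), *Islr2* (r = 0.984) and *Wbscr17* (r = 0.980). *Ncdn*, which encodes neurochondrin, had 104000 ± 12500 TMM-normalized counts in control and 118700 ± 18500 in SAP97-cKO hippocampi (SD, n = 4). *Gria2* was closest to *Sema4f* (r = 0.990), *Itga8* (r = 0.986) and *Foxp1* (r = 0.982), and *Gria3* to *2900055J20Rik* (r = 0.985), *Csmd1* (r = 0.984) and *Armcx4* (r = 0.983). *Gria4* was closest to *Vat1* (r = 0.975), *Cbln1* (r = 0.968) and *Fam98a* (r = 0.951). *Cbln1*, which encodes the synaptic organizer cerebellin 1, had 973.1 ± 768.0 counts in control and 475.6 ± 232.0 in SAP97-cKO hippocampi (SD, n = 4), with an adjusted p of 0.434 in edgeR. None of these 12 genes passed an FDR of 0.25.

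Marker genes of 10 cell types and neighbouring tissues were set beside the subunit genes. Markers of hippocampal neurons were present at high level in all libraries. The 8 excitatory neuron genes summed to 140400, 126300, 117500 and 120700 TMM-normalized counts in control libraries 1 to 4 and to 139100, 124800, 145900 and 161600 in SAP97-cKO libraries 1 to 4. *Slc17a7*, the vesicular glutamate transporter, was the most abundant of them, at 48330 ± 3760 counts in control and 57070 ± 5060 in SAP97-cKO hippocampi (SD, n = 4). The fold change was above 0 for 8 of 8 genes, against 47.2% of all genes tested. Of the 8, 0 passed an FDR of 0.25 in edgeR and 2 had an unadjusted p under 0.05, where 4.73% of all genes tested were higher.

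The mean log2 CPM of the 8 excitatory neuron genes followed *Gria1* closely, in a comparison chosen after the data had been seen. Over the 8 libraries r was 0.97 (exact permutation p = 0.000496, adjusted over 40 relations of 4 genes with 10 lists p = 0.0198) and rho was 0.88 (exact permutation p = 0.00724, adjusted p = 0.0965). It was 0.96 for deviations from the genotype means and 0.92 over 6 libraries without the 2 farthest from the median of the score (exact permutation p = 0.0167, adjusted p = 0.155). The r was 0.89 for *Gria2* (exact permutation p = 0.00771, adjusted p = 0.154), 0.57 for *Gria3* (exact permutation p = 0.132, adjusted p = 0.489) and −0.79 for *Gria4* (exact permutation p = 0.0211, adjusted p = 0.242). For *Gria3* it was 0.94 over 6 libraries without the 2 farthest (exact permutation p = 0.00694, adjusted p = 0.13). Of the 40 relations, 1 passed an adjusted p of 0.05 by r and 0 by rho. With the excitatory neuron genes as a covariate, the log2 fold changes were −0.02 for *Gria1*, 0.07 for *Gria2*, 0.22 for *Gria3* and −0.13 for *Gria4*, none past an FDR of 0.25 in edgeR.

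**Figure D2:**
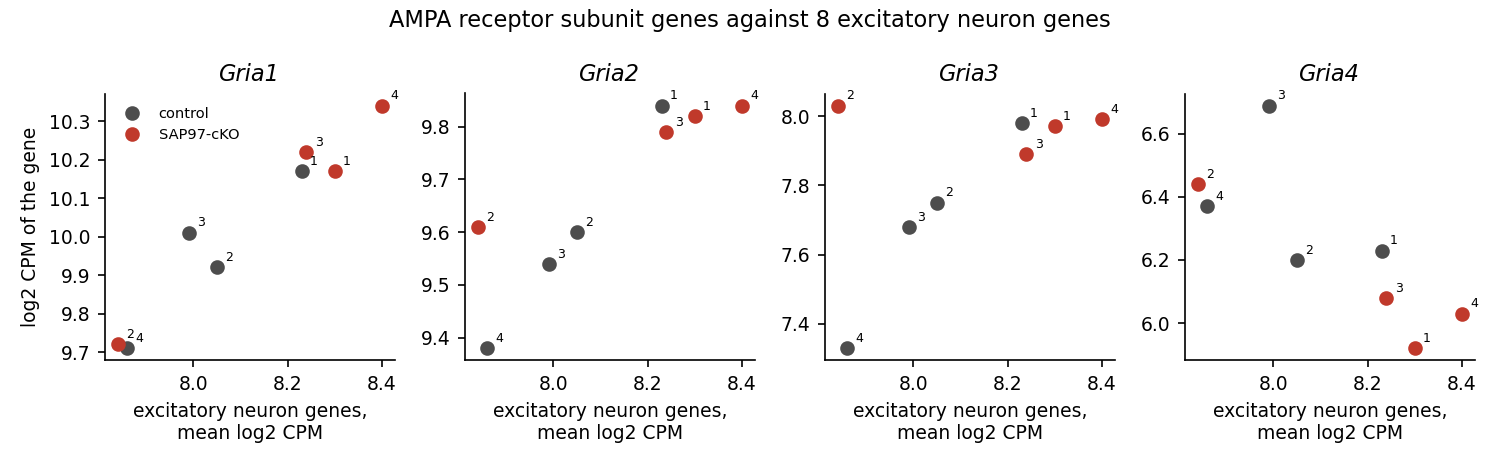
Log2 CPM of each AMPA receptor subunit gene (y axis) against the mean log2 CPM of 8 excitatory neuron genes (x axis) in each library, with replicate numbers beside the points. *Gria1* is higher where the score is higher in both genotypes (r = 0.97, n = 8) and *Gria4* had r = −0.79, while SAP97-cKO library 2 stands away from the other libraries for *Gria3*.

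Markers of cells outside the neuronal population also differed between libraries. Of 12 meningeal fibroblast genes, 7 were lower in SAP97-cKO hippocampi at an FDR of 0.25 in edgeR. These calls were lost without control library 2, SAP97-cKO library 3 or SAP97-cKO library 4, where 0 of all genes tested passed. The mean of the 12 meningeal fibroblast genes did not overlap between genotypes. Their summed counts were 11730, 19690, 11910 and 11430 in control libraries 1 to 4 and 6969, 10480, 9354 and 6645 in SAP97-cKO libraries 1 to 4, with *Igf2* the most abundant by mean. The 7 oligodendrocyte genes summed to 204800, 304600, 279100 and 330100 in control and to 289900, 169800, 174800 and 160500 in SAP97-cKO libraries, with *Mbp* the most abundant. The 9 choroid plexus genes summed to 45080, 255700, 143000 and 6389 in control and to 21310, 87890, 50700 and 3589 in SAP97-cKO libraries, with *Ttr* the most abundant. No gene of these 3 lists was at 0 in any library. Among the 40 relations, *Gria3* had r = −0.71 to the oligodendrocyte genes (exact permutation p = 0.0268, adjusted p = 0.242). *Gria4* had r = 0.76 to the thalamus genes (exact permutation p = 0.0303, adjusted p = 0.242) and rho = 0.62 (exact permutation p = 0.115, adjusted p = 0.46). Its r was 0.59 over 6 libraries without the 2 farthest. By rho, *Gria1*, *Gria2* and *Gria3* had −0.76, −0.90 and −0.67 to the thalamus genes (adjusted p = 0.245, 0.0965 and 0.415 by exact permutation). Of the thalamus genes, 5 of 5 had a fold change below 0. To the interneuron genes *Gria4* had r = 0.30 (exact permutation p = 0.472, adjusted p = 0.699). With the choroid plexus genes as a covariate, the log2 fold change of *Gria3* was 0.32 and that of *Gria4* −0.20 (adjusted p = 0.403 and 0.526 in edgeR). The part of oligodendrocytes, interneurons and thalamus in the values of the 4 subunit genes was not tested.

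No gene passed an FDR of 0.25 in edgeR in any marker list but that of meningeal fibroblasts, whose median log2 fold change was −1.01. All 7 oligodendrocyte genes had a fold change below 0 (median −0.47), 4 with an unadjusted p under 0.05, and all 9 choroid plexus genes did (median −1.48), 0 with an unadjusted p under 0.05. The median log2 fold change was −0.03 for 8 interneuron genes, 0.07 for 6 astrocyte genes, 0.10 for 4 oligodendrocyte precursor genes, 0.02 for 6 microglia genes, −0.19 for 5 endothelial genes and −0.62 for 5 thalamus genes, against −0.01 over all genes tested. At an unadjusted p under 0.05, 1 interneuron gene and 1 thalamus gene were lower, and 2 astrocyte genes and 1 oligodendrocyte precursor gene were higher. Over all genes tested, 7.01% were lower and 4.73% higher at that threshold in edgeR.

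Genes that act on AMPA receptors were examined in 5 lists, with 2 lists of other glutamate receptor subunits beside them. Of the 66 genes, 65 passed the filter. At an FDR of 0.25 in edgeR 0 of the 65 passed, as in limma-voom, while in DESeq2 10 passed and all 10 were higher in SAP97-cKO hippocampi. At an unadjusted p under 0.05 in edgeR, 13 were higher and 1 was lower, against 4.73% higher and 7.01% lower over all genes tested. Over all 16251 genes DESeq2 passed 1033, of which 445 were higher. Without control library 1, 14 of the 65 passed in edgeR (1675 of 16469 over all genes). Without SAP97-cKO library 1, 5 did (711 of 16474 over all genes). The fold change was above 0 for 54 of the 65 genes with TMM, against 47.2% of all genes tested, and the median log2 fold change was 0.16 against −0.01. With no scaling 51 of the 65 were above 0 (median 0.11), and without control library 4, 52 were (median 0.12). With the excitatory neuron genes as a covariate 49 of the 65 were above 0 (median 0.10). With the meningeal fibroblast genes 40 were (median 0.07), in a fit that cannot tell genotype from that score.

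The auxiliary subunits travel with the receptor and set its gating and surface number. Of 15 genes, 11 had a fold change above 0 and the median log2 fold change was 0.21. Per kb, *Cnih2*, which encodes a cornichon protein, was the most abundant, with 13890 ± 1060 TMM-normalized counts in control and 14940 ± 2770 in SAP97-cKO hippocampi (SD, n = 4, log2 fold change 0.11, adjusted p = 0.741 in edgeR). Its log2 fold change was −0.03 and −0.04 with the choroid plexus and excitatory neuron genes as covariates. *Shisa7* had 4782 ± 1020 counts in control and 6264 ± 545.0 in SAP97-cKO hippocampi (SD, n = 4, log2 fold change 0.39, SE 0.14, adjusted p = 0.368 in edgeR). *Cnih3* had 2954 ± 275.0 and 3511 ± 353.0 counts (SD, n = 4, log2 fold change 0.25, adjusted p = 0.368 in edgeR). *Shisa9* and *Prrt1* had log2 fold changes of 0.21 and 0.25, with adjusted p of 0.4 and 0.408 in edgeR.

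Proteins of the endoplasmic reticulum assemble the receptor before auxiliary subunits join it. Of the 6 genes for these proteins, 5 had a fold change above 0, with a median log2 fold change of 0.10. *Frrs1l* had 16920 ± 3280 TMM-normalized counts in control and 19290 ± 2350 in SAP97-cKO hippocampi (SD, n = 4, log2 fold change 0.19, adjusted p = 0.604 in edgeR), and *Abhd12* had a log2 fold change of 0.04, which was −0.01 with no scaling. *Sacm1l*, which encodes a lipid phosphatase, had 3840 ± 221.0 counts in control and 3413 ± 140.0 in SAP97-cKO hippocampi (SD, n = 4, log2 fold change −0.17, adjusted p = 0.375 in edgeR).

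Scaffold and trafficking proteins anchor the receptor at the synapse or move it between membranes. Of 25 genes, 20 had a fold change above 0, and the median log2 fold change was 0.14. *Dlg4*, which encodes the scaffold PSD-95, had 26770 ± 1360 TMM-normalized counts in control and 30970 ± 1630 in SAP97-cKO hippocampi (SD, n = 4), and the genotypes did not overlap. Its log2 fold change was 0.21 (SE 0.072, adjusted p = 0.358 in edgeR and 0.0814 in DESeq2). *Dlg2*, which encodes PSD-93, had a log2 fold change of 0.19 (adjusted p = 0.376 in edgeR). *Camk2a*, the kinase that phosphorylates GluA1, was the most abundant per kb, with 147900 ± 7010 counts in control and 179500 ± 23500 in SAP97-cKO hippocampi (SD, n = 4, log2 fold change 0.28, adjusted p = 0.374 in edgeR). *Nsg2* had a log2 fold change of 0.11 (adjusted p = 0.63 in edgeR).

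Neuronal pentraxins cluster AMPA receptors from the extracellular side. All 3 genes had a fold change above 0, and *Nptxr* had 32350 ± 4670 TMM-normalized counts in control and 43420 ± 8120 in SAP97-cKO hippocampi (SD, n = 4, log2 fold change 0.42, SE 0.15, adjusted p = 0.365 in edgeR). *Nptx1* had a log2 fold change of 0.13 (adjusted p = 0.736 in edgeR), which was −0.05 with the excitatory neuron genes as a covariate. Of the RNA editing list, *Adarb1* encodes the enzyme known to edit the *Gria2* transcript at the pore site. It had 8128 ± 1330 and 8177 ± 331.0 counts (SD, n = 4, log2 fold change 0.01, −0.04 with no scaling, adjusted p = 0.979 in edgeR). *Adar* had a log2 fold change of 0.14 (adjusted p = 0.555 in edgeR), and the median of the 3 genes was 0.14.

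The other ionotropic glutamate receptors lay on the same side of 0. Of 7 NMDA receptor genes 6 passed the filter, and all 6 had a fold change above 0, with a median log2 fold change of 0.28. *Grin1*, the obligatory subunit, had 13340 ± 1870 TMM-normalized counts in control and 16190 ± 1480 in SAP97-cKO hippocampi (SD, n = 4, log2 fold change 0.28, adjusted p = 0.386 in edgeR). *Grin2b* had 19470 ± 7270 and 27100 ± 3840 counts (SD, n = 4, log2 fold change 0.48, adjusted p = 0.478 in edgeR). Control library 4 had 9146 counts of it and the other controls 20580 to 26100, and without that library the log2 fold change was 0.24. Of 7 kainate and delta receptor genes, 6 had a fold change above 0, with a median of 0.25. The kainate subunit gene *Grik5* had 7102 ± 569.0 counts in control and 8790 ± 653.0 in SAP97-cKO hippocampi (SD, n = 4, log2 fold change 0.31, adjusted p = 0.316 in edgeR and 0.036 in DESeq2). The delta receptor gene *Grid1* had 2713 ± 159.0 and 3271 ± 145.0 counts (SD, n = 4, log2 fold change 0.27, adjusted p = 0.297 in edgeR and 0.0195 in DESeq2). Neither overlapped between genotypes. Over the 7 lists, 4 of 65 genes did not overlap, a share close to the 6.25% of all genes tested.

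**Figure D3:**
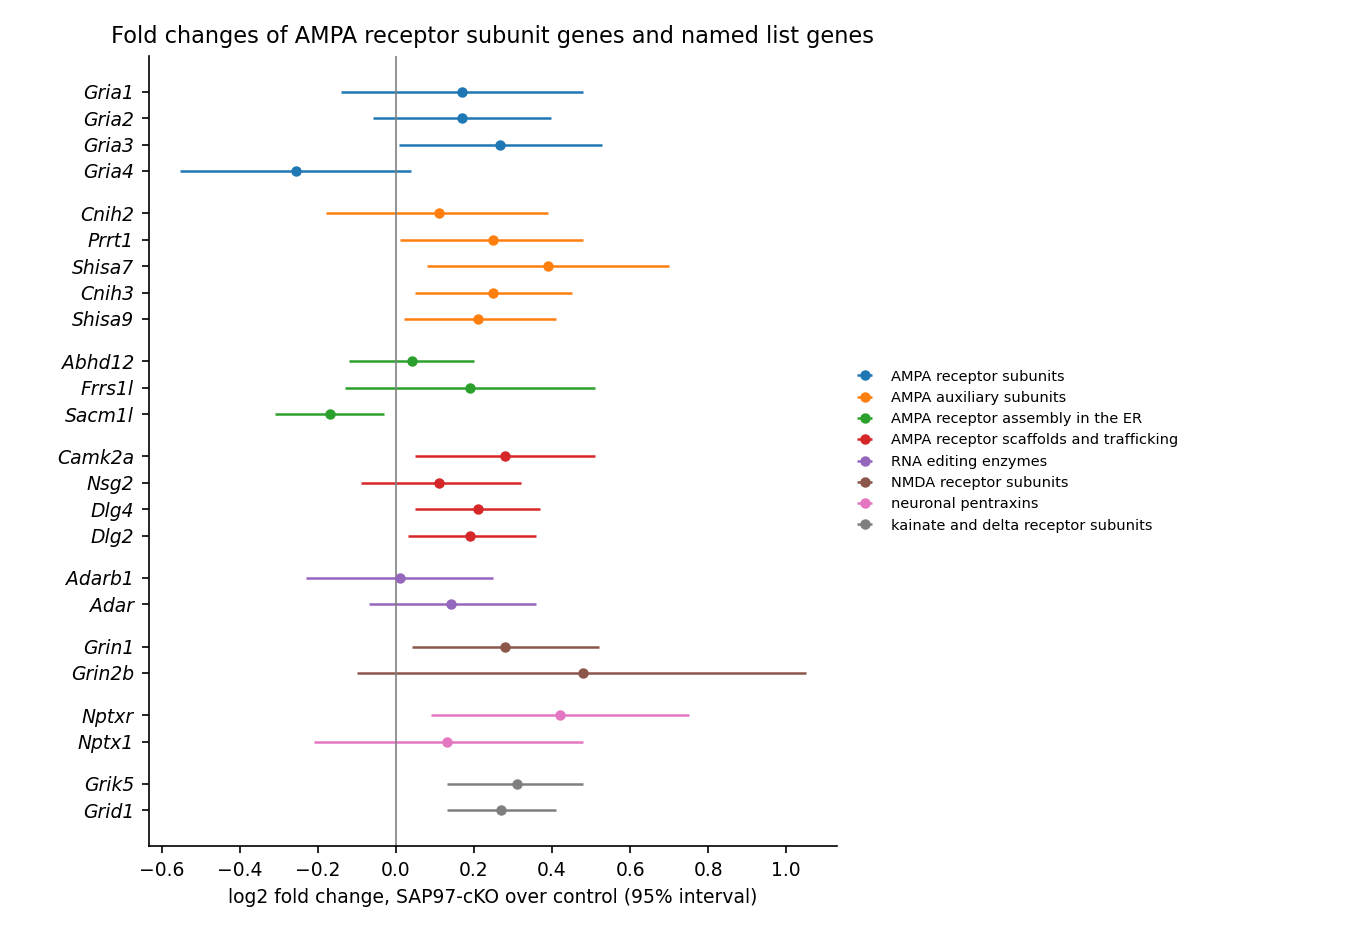
Log2 fold changes, SAP97-cKO over control (x axis), of the 4 AMPA receptor subunit genes and of 20 genes of 7 lists, with 95% intervals from edgeR (n = 4 mice per genotype). *Gria4* and *Sacm1l* lie below 0 and the other genes above it, none past an FDR of 0.25.

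The coding ends of the 4 genes are shown because the C-terminal tail sets which PDZ proteins a subunit can bind, and that of GluA1 is the one SAP97 binds. Each line gives the last 36 coding bases before the stop codon in the APPRIS principal transcript of GENCODE M21, in the direction of the transcript, with the final 4 codons in capitals.
Gria1: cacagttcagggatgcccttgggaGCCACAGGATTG
Gria2: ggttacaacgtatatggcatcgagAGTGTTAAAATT
Gria3: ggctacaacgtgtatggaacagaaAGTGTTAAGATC
Gria4: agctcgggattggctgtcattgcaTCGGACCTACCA
They lie in coding exons at chr11:57327608-57327643 (plus strand), chr3:80689109-80689144 (minus strand), chrX:41672426-41672461 (plus strand) and chr9:4420155-4420190 (minus strand) of GRCm38.

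*Gria2* and *Gria3* shared 28 of these 36 bases and 10 of the 12 in capitals. *Gria1* shared 6 bases with *Gria2*, 6 with *Gria3* and 9 with *Gria4*. Over the whole coding sequence, aligned bases were identical at 69.4% (*Gria1* and *Gria4*) to 73.1% (*Gria3* and *Gria4*) of positions. Of all stretches of 50 bases in annotated transcripts, *Gria1* shared 0 with each of the other 3 genes. *Gria2* and *Gria3* shared 9, *Gria2* and *Gria4* 8, and *Gria3* and *Gria4* 4. *Gria2*, *Gria3* and *Gria4* held 15690, 9934 and 6276 such stretches. How many reads were split between members was not tested.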

How the data were processed

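The authors ran STAR 2.5.3a to align reads of 4 control and 4 SAP97-cKO male hippocampi against mm10 (GRCm38.p5), and used PORT to remove ribosomal and mitochondrial reads, to resample reads to equal depth and to count them on Ensembl genes, as their methods state. The deposited counts are whole numbers per gene and library. The sources used here do not state the strand of counting. The authors' deposited log2 fold changes, p-values and q-values come from their own limma-voom comparison and were not used.

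Genes were kept with filterByExpr (minimum count 10, minimum total 15), which left 16251 of 25834, and libraries were scaled by TMM. In R 4.3.3, edgeR 4.0.16 compared the genotypes by its quasi-likelihood test. Its p-values were adjusted over all tested genes by the Benjamini-Hochberg method, and the threshold was the FDR of 0.25 used in the study's methods. The standard error is the log2 fold change over the square root of F, and intervals are 95%. Shares, neighbouring levels and correlations were tested by exact two-sided permutation over libraries in Python 3.11.15. The fit was tested on simulated data. The noise between any 2 libraries exceeded that of sampling, at 9.76 to 73.4 in chi-square per gene. Gene lengths, coordinates and transcripts came from GENCODE M21, with 25696 gene identifiers matched, coding sequences were aligned with Biopython 1.88, and plots were drawn with matplotlib 3.10.9.

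Named genes were *Gria1* to *Gria4*, *Dlg1*, in each of 7 pathway lists the 2 genes with the highest mean count per kb and up to 4 with an unadjusted p under 0.05, and the 3 genes most correlated with each subunit gene. Of the genes so named, 1 is not reported here. The 7 lists held AMPA receptor auxiliary subunits, assembly proteins, scaffold and trafficking proteins, neuronal pentraxins, RNA editing enzymes, NMDA receptor subunits, and kainate and delta receptor subunits. The 10 marker lists were for excitatory neurons, interneurons, astrocytes, oligodendrocyte precursors, oligodendrocytes, microglia, endothelial cells, meningeal fibroblasts, choroid plexus and thalamus. The members and lists were chosen with earlier results of these data known. Alternatives were limma-voom (limma 3.58.1), DESeq2 1.42.0, DESeq2 size factors in edgeR, no scaling, no filter, at least 10 counts in all libraries, a replicate block, 3 marker covariates, other gene lengths, an FDR of 0.05 and leaving out each library.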

Additional observations from a re-analysis of the deposited data

Results flagged for a closer look

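Among 80 groups of 4 libraries checked for a single library far from the other 3 (a gap over 0.829 of the range), 2 stood out, where chance picks out about 1 in 20 groups. The share of *Gria4* in the summed AMPA receptor subunit level was 5.98% in SAP97-cKO library 2, against 3.33% to 3.71% in the other SAP97-cKO libraries, a gap of 0.857 of the range. The share of *Gria2* was 18.8% in control library 3, against 20.3% to 20.5% in the other controls, a gap of 0.882 of the range.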

How the results depend on the processing

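The log2 fold changes of *Gria1* to *Gria4* were recomputed under 18 alternatives each, of which 8 leave out 1 library. Of these 72 values, 68 kept their direction and their side of an FDR of 0.25. *Gria1* turned to −0.23 with the meningeal fibroblast genes and to −0.02 with the excitatory neuron genes as a covariate, and the cause was not tested. The meningeal fibroblast score did not overlap between genotypes, so its fit cannot tell the score from genotype. Leaving out each library in turn gave 0.09 to 0.29 for *Gria1*, 0.10 to 0.26 for *Gria2*, 0.16 to 0.37 for *Gria3* and −0.38 to −0.13 for *Gria4*. The upper values of *Gria2* and *Gria3*, without control library 1, passed the threshold. The lowest values of *Gria1* (0.09), *Gria2* (0.10) and *Gria3* (0.16) came without control library 4, which held the lowest control level of each. The value of *Gria4* closest to 0 (−0.13) came without control library 3, its highest control. Without SAP97-cKO library 2, *Gria1* was 0.29 and *Gria4* −0.38 (adjusted p = 0.4 and 0.361 in edgeR). *Dlg1* was −0.40 and no longer called with the meningeal fibroblast covariate, and −1.0 to −0.78 without each library in turn.

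The count of genes past an FDR of 0.25, 48 at first, was 1033 in DESeq2, 95 with no scaling, 104 with no filter, 16 with the choroid plexus covariate, 5 with the excitatory neuron covariate, 0 with the meningeal fibroblast covariate, 0 at an FDR of 0.05, and 0 to 1675 without each library in turn. With the replicate block it was 256 (234 lower, 22 higher), and *Gria1* to *Gria4* stayed uncalled. The sources used here do not state whether the numbers pair the mice. Correlations between deviations of control and SAP97-cKO libraries of the same number were −0.062, 0.201, 0.0898 and 0.259. The control of the same number was the closest to SAP97-cKO libraries 2 and 3, tied with control library 1 for library 4 (0.259), and was not the closest for library 1, where control library 2 was (0.103). The choroid plexus sums had the same order by number in both genotypes. Whether the numbers mark pairs cannot be told from these values.

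Mean shares of the summed level moved with the length. *Gria1* was 47.9% per coding kb and 48.2% with no length, *Gria2* 37.8% and 37.7%, and *Gria3* 10.7% and 10.5%, against 66.2%, 20.1% and 8.87% per kb of exon union. The difference between genotypes in the share of *Gria1*, 0.188 percentage points, became −0.13 and −0.119 on those 2 scales and −0.801 to 2.10 without each library in turn. That of *Gria2* was −0.286 to 0.672. The order of levels was kept. The correlation of *Gria1* and *Gria2* was no longer past the threshold without the 2 farthest libraries (r = 0.86), that of *Gria2* and *Gria3* did so there (0.44) and within genotypes (0.78), and that of *Gria3* and *Gria4* turned to 0.09.

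Of 360 values for the 20 named genes of the lists, 324 kept direction and side, 15 reversed and 21 newly passed an FDR of 0.25. Those 21 came from DESeq2 or from leaving out control library 1 or SAP97-cKO library 1, with adjusted p from 0.0195 (*Grid1* in DESeq2) to 0.241 (*Shisa9* without control library 1). Without each library in turn *Grin2b* was 0.24 to 0.65, *Frrs1l* 0.06 to 0.27, *Nptx1* 0.01 to 0.26, *Cnih2* 0.01 to 0.22, *Adar* 0.07 to 0.21, *Nsg2* 0.08 to 0.18 and *Abhd12* 0.01 to 0.10. With the meningeal fibroblast covariate *Cnih2* was −0.44, *Abhd12* −0.13, *Frrs1l* −0.02, *Camk2a* −0.03, *Adarb1* −0.17 and *Nptx1* −0.12. With the choroid plexus covariate *Cnih2* was −0.03 and *Abhd12* −0.01. With the excitatory neuron covariate *Cnih2* was −0.04, *Adarb1* −0.05 and *Nptx1* −0.05. With no scaling *Abhd12* was −0.01 and *Adarb1* −0.04, and *Adarb1* ranged from −0.09 to 0.11 without each library in turn. The causes were not tested. The number of mice was 4 per genotype.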

Other observations

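SAP97-cKO library 2 held the lowest *Gria1* level of its genotype (31432 TMM-normalized counts), the highest *Gria3* level of all 8 libraries (9752), the highest *Gria4* level of its genotype (3234) and the highest *Dlg1* level of its genotype (3065). GENCODE M21 lists 5 transcripts for *Gria1*, 8 for *Gria2*, 9 for *Gria3* and 4 for *Gria4*, and the counts cover all transcripts of a gene, so the flip and flop forms of each subunit were not analysed here.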
